A study of Mus musculus with 26 samples.

Results

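The 9 genes described here are immediate early genes: the zinc finger transcription factors Egr1, Egr2, Egr3 and Egr4, the orphan nuclear receptors Nr4a1, Nr4a2 and Nr4a3, the synaptic protein gene Arc, and the neuronal transcription factor gene Npas4. They were chosen by symbol, and all 9 were found among the 31735 genes listed in every one of the 26 count files. Each of the 9 had enough counts to be tested, in the fit of 15854 genes across the immunopurified libraries and in the fit of 14929 genes against input.

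Immediate early genes are transcribed within minutes of neuronal firing or receptor signalling, from factors that are already present in the cell, such as CREB and the serum response factor. In striatal medium spiny neurons, dopamine and glutamate signalling act on them, and cocaine is a well known inducer in the whole striatum. Their mRNAs are short-lived, so a level reflects the period shortly before the tissue was taken. Egr and Nr4a proteins and Npas4 switch on later genes, whereas Arc acts at the synapse by promoting the removal of AMPA receptors.

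The libraries came from the accumbens nucleus of adult mice of the Drd2-TRAP CP101 line, in which the ribosomal protein Rpl10a fused to EGFP is driven from the Drd2 gene, on an FVB/N-Swiss Webster background crossed to C57BL/6 for at least 9 generations. The mice self-administered saline or cocaine by the intravenous route in long-access sessions, and ribosome-bound RNA was pulled down with an antibody to EGFP. All groups carried the transgene. There were 3 libraries from saline mice, 5 from nonescalating cocaine mice, 2 from escalating cocaine mice, 6 from saline mice after withdrawal, 8 from nonescalating cocaine mice after withdrawal, and 1 unpurified input library for each agent. The time between the last session and dissection, the cocaine dose and the length of withdrawal were not given in the sources used here. The Drd2 promoter is active in cholinergic interneurons as well as in D2 medium spiny neurons. Nothing in the labels says that a library is 1 animal, so p-values measure the spread between libraries. For the nonescalating libraries the labels conflict, since 1 field mentions withdrawal and the title does not, and groups follow the titles.

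Library numbers in the titles fall into 2 runs, 1806 to 1825 and 1836 to 1843, whose files list different numbers of genes (32657 and 32531). These are called set 1 and set 2. Only the withdrawal groups occur in both (3 saline and 3 nonescalating libraries in set 1, 3 and 5 in set 2). Counts in genes ranged from 1.54 M to 17.5 M (M for 1000000) over the 24 immunopurified libraries, and were 4.70 M and 37.5 M in the inputs. The 10 D2 neuron markers summed to between 1390 and 10909 CPM (counts per 1000000 counts in genes) in the immunopurified libraries and to 1646 and 2138 CPM in the inputs. The cholinergic marker Chat was at 0 to 45.9 CPM in the immunopurified libraries and at 9.82 and 19.5 CPM in the inputs. All 5 cholinergic markers tested against input were lower in the pull-down (median log2 fold change -1.78), and 0 were called. The D1 neuron markers summed to 71.5 to 203 CPM in the immunopurified libraries and to 419 and 456 CPM in the inputs. The 11 endothelial and mural markers, from blood vessels, were all above input in the pull-down (median log2 fold change 4.16 over the 11, where the median of all genes tested was 0.07). 1 library stood apart. Nonescalating replicate 4 had Drd2 at 243 CPM, below both inputs (279 and 391 CPM), Malat1 at 76769 CPM and 62.5% of its reads in no annotated feature. It was kept, and some results are also given without it.

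Nr4a genes are classical targets of CREB, and the core of the CREB motif, TGACG, is shown here for the family because 2 of its members stood higher in the escalating libraries than in either group they were compared with, and the third did not. The windows are the 250 bases before the RefSeq start (build GRCm38.p6), 5′ to 3′ on the gene's strand. Capitals mark TGACG on either strand (CGTCA when read on the other strand), and none of the matches overlap. The Nr4a3 window is printed only as far as the first GENCODE exon of the gene, and holds 1 more match beyond it. The printed stretches are chr15:101266596-101266845 (plus strand) for Nr4a1, which lies inside the span of its longest GENCODE transcripts but in none of their exons, chr2:57124004-57124253 (minus strand) for Nr4a2 and chr4:48045055-48045152 (plus strand) for Nr4a3.
Nr4a1: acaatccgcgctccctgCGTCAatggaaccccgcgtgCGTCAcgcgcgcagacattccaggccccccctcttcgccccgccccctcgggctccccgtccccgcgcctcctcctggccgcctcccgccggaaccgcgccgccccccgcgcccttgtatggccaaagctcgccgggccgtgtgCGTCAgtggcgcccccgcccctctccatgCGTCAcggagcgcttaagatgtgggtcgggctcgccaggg
Nr4a2: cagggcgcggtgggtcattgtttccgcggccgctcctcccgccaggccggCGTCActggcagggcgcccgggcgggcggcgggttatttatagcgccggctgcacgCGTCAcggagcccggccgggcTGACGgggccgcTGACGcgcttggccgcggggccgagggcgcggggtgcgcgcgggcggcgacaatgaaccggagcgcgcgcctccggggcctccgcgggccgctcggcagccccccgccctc
Nr4a3: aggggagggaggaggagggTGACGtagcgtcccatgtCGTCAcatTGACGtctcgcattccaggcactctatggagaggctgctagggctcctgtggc

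All 3 Nr4a windows held 4 matches, a number reached by 0.137% of the 32851 windows of the same length in the reference table. At least 1 match was in 17.8% of those windows and at least 2 in 3.90%. The Egr4 and Npas4 windows held 2 matches each, and the 5 windows of Egr2 held 0 or 2. A CArG box, the motif of the serum response factor, was in 4 of the 5 Egr2 windows and in none of the windows of Egr4, Npas4 or the Nr4a genes, against 1.47% of all windows. 6 of the 9 genes had a window in the table. These matches describe letters in the windows, not binding.

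Divided by exon length, the order of mean levels over the 24 immunopurified libraries was Egr1 (83.4 CPM per kilobase), Egr3 (35.7), Nr4a1 (10.9), Arc (9.22), Egr4 (6.68), Nr4a2 (2.76), Nr4a3 (2.31), Npas4 (2.10) and Egr2 (1.91). Exon lengths came from GENCODE M21 on GRCm38, since the authors' annotation was not given in the sources used here. No other annotated gene overlaps any of the 9 (Nr4a3, for example, spans chr4:48045153-48086447 on the plus strand, and Arc spans chr15:74669083-74672570 on the minus strand). Egr1 and Egr3 were read in every library, with at least 217 counts of Egr1 in each. Egr2, Nr4a2 and Npas4 were each at 0 counts in 4 of the 24 immunopurified libraries. A count of 0 allows up to 0.171 CPM in the deepest of the 24 and 1.95 CPM in the shallowest (3 counts, counting error only). The AP-1 gene Fos, the gene most often used to mark recent activity, was at 0 in 12 of the 24 and at most 6.63 CPM in the others.

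The spread between libraries of 1 group and set also differed among the 9. It was lowest for Egr1 (SD 0.70 on the log2 CPM scale), followed by Egr3 (0.90), Arc (1.04), Nr4a3 (1.20) and Nr4a1 (1.24). The median over all genes tested was 1.32. It was highest for Egr4 (1.89), Egr2 (2.10), Npas4 (2.23) and Nr4a2 (2.45). For Nr4a2 the 3 saline libraries held 82.1 CPM, 0 CPM and 15.9 CPM, that is 383 counts in replicate 1 and none in the deeper replicate 3.

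**Figure D1:**
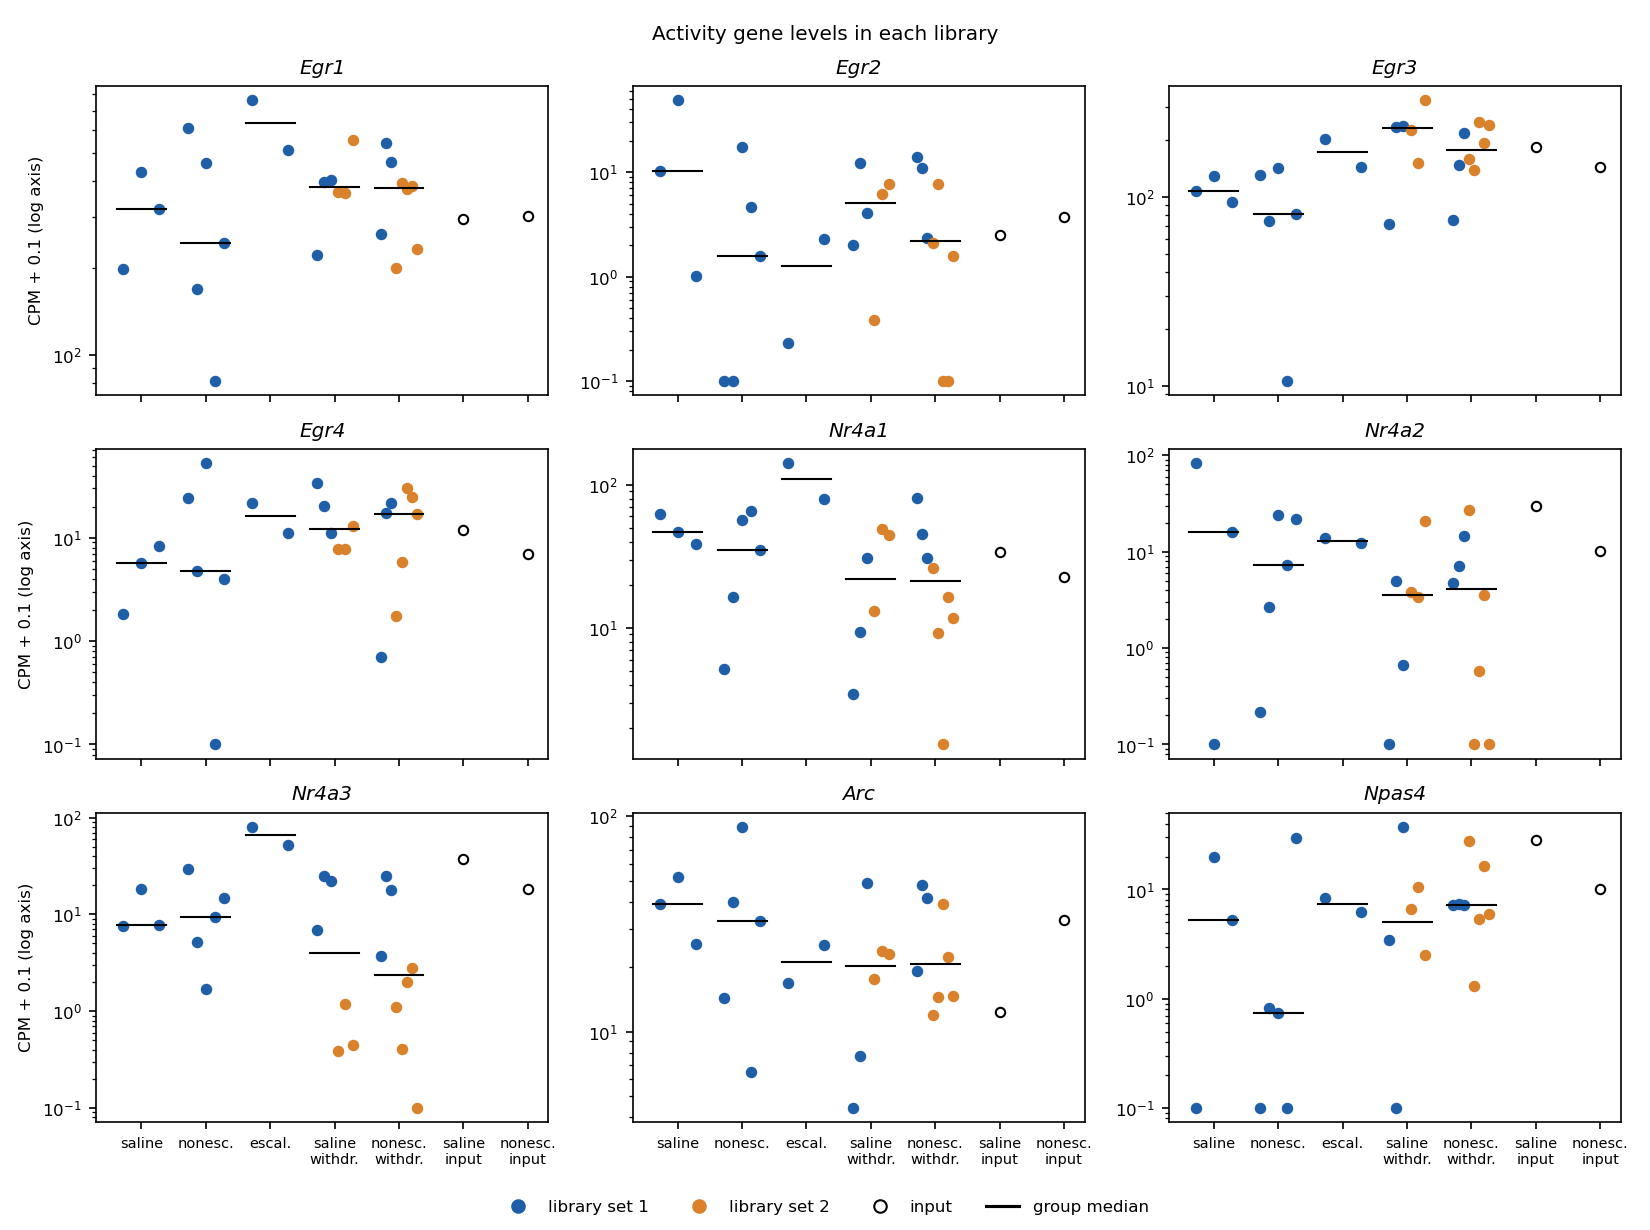
Level of each gene in each library (vertical axes: CPM plus 0.1, log scale) by group, with set 1 in blue, set 2 in orange, inputs open and a black line at each group's median. Nr4a3 is highest in the 2 escalating libraries (80.0 and 51.6 CPM) and at 2.67 CPM or less in the 8 libraries of set 2.

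The first comparison asks how cocaine intake that escalated differs from intake that did not. Of the 9 genes, Egr1, Egr3, Nr4a1 and Nr4a3 had their higher means in the escalating libraries by more than 1 standard error, and none passed the test (edgeR quasi-likelihood test, Benjamini-Hochberg adjusted p under 0.05 over all genes), nor did any of the 15854 genes (0%). At an unadjusted p under 0.05, 1388 genes stood out (8.75%), Egr1 and Nr4a3 among them. DESeq2 called 225 genes here and limma voom 8, against 0 by edgeR. All of these libraries are of set 1.

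Nr4a3 was at 80.0 and 51.6 CPM in the 2 escalating libraries. In the 5 nonescalating libraries it was at 29.1, 5.08, 1.61, 9.36 and 14.6 CPM. Both escalating libraries were above all 22 other immunopurified libraries, the highest of which had 29.1 CPM. Of these 22, 8 are of set 2, where Nr4a3 was at most 2.67 CPM, whereas both escalating libraries are of set 1. The share of all genes with this pattern was not computed. The fitted log2 fold change was 2.45 (SE 0.97, 95% interval 0.47 to 4.43, adjusted p = 0.558, n = 2 and 5).

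Nr4a1 was at 141 and 79.4 CPM in the escalating libraries. It was at 5.05, 16.3, 56.4, 65.9 and 34.7 CPM in the nonescalating libraries, so the groups did not overlap. The log2 fold change was 1.63 (SE 0.89, adjusted p = 0.560), and 1.99 without nonescalating replicate 4.

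Egr3, a close relative of Egr1, was at 201 and 143 CPM in the escalating libraries. The nonescalating libraries had 130, 74.4, 143, 10.5 and 80.6 CPM, the highest of them just below the lower escalating library (142.5 against 143.5 CPM). The log2 fold change was 0.98 (SE 0.54, adjusted p = 0.561), and 0.70 without nonescalating replicate 4. Egr1 was at 765 and 514 CPM against 613, 170, 462, 81.3 and 244 CPM, and the groups overlapped. Its log2 fold change was 1.03 (SE 0.48, adjusted p = 0.558), and 0.79 without nonescalating replicate 4.

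Nr4a1, Nr4a3 and Egr3 were thus the 3 of 9 whose escalating libraries were both above all nonescalating ones, a pattern shown by 4.99% of all genes tested. None of the 9 was below without overlap, as 4.07% of all genes were. With median-of-ratios scaling in place of TMM, the median of all genes in this comparison moved from -0.12 to -0.26, and the 4 values above kept their sign. Egr2, Egr4, Nr4a2, Arc and Npas4 differed by less than their standard errors (log2 fold changes from -1.98 for Egr2 to 0.29 for Npas4). Other measures moved with these groups. The 2 escalating libraries were deeper (7.63 M and 17.5 M counts, against 1.90 M to 9.71 M). The D2 markers summed to 8578 and 8605 CPM in them and to a median of 5548 CPM in the nonescalating ones. The 8 oligodendrocyte genes and the 7 astrocyte genes had log2 fold changes below 0 in all 8 and all 7 cases, as had all 6 nuclear RNAs, which mark RNA from nuclei (median -0.71). Reads in no annotated feature were 31.3% and 47.2% in the escalating libraries and 34.0% to 62.5% in the nonescalating ones. The part of these measures in the result was not tested.

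Beyond the 9, the 31 tested genes of a list of other activity genes had 20 log2 fold changes above 0 (median 0.22, where the median of all genes was -0.12) and none passed the test. The smallest p was that of Dusp1, a phosphatase that switches off MAP kinases, at 1.87 (SE 0.54, adjusted p = 0.558). It was at 225 and 95.9 CPM in the escalating libraries and at 22.2 to 72.3 CPM in the nonescalating ones. Junb had 86.1 CPM in 1 escalating library and 1.03 CPM in the other. Plk2 (0.82, SE 0.38) and Klf10 (2.14, SE 1.02) were next by p. Of the 17 upstream regulators and partners, 11 were above 0. Srf, the serum response factor itself, had 135 and 477 CPM against 16.1 to 143 CPM (log2 fold change 2.09, SE 0.61, adjusted p = 0.558).

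Against saline, where the same escalating libraries are compared with the 3 saline libraries, no gene of the 15854 passed the test (0%), and 1283 had an unadjusted p under 0.05 (8.09%), Nr4a3 among them. DESeq2 called 143 and limma voom 0. Nr4a3 was at 7.50, 18.05 and 7.66 CPM in saline (log2 fold change 2.54, SE 1.14, 95% interval 0.22 to 4.85, adjusted p = 0.614). Nr4a1 was at 62.6, 46.6 and 38.3 CPM in saline (1.13, SE 1.01), and the value was 0.67 without escalating replicate 1. Egr1 was at 199, 432 and 320 CPM in saline (0.99, SE 0.54).

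Egr3 was at 107, 129 and 93.5 CPM in saline (0.62, SE 0.61), and the value was 0.37 without escalating replicate 1. Egr4 was at 1.71, 5.54 and 8.27 CPM in saline against 21.4 and 11.05 CPM in the escalating libraries (1.64, SE 1.37). Arc was the only gene of the 9 below without overlap, at 16.7 and 25.2 CPM against 39.2, 52.1 and 25.4 CPM, and its log2 fold change of -0.92 was smaller than its SE of 0.94. Egr1, Egr3, Egr4, Nr4a1 and Nr4a3, 5 of the 9, had both escalating libraries above all saline ones, as had 7.66% of all genes tested, and 6.55% were below as Arc was. Egr2 had a log2 fold change of -4.13 (SE 2.32) that rested on counts of 2 and 15 in the escalating libraries and on saline replicate 3 (48.8 CPM), and was -2.20 without that replicate and -7.00 without escalating replicate 2. Nr4a2 (-1.39, SE 1.99) and Npas4 (-0.24, SE 1.96) differed by less than their standard errors. Markers moved with these groups too. Of the D2 neuron markers 9 of 10 were above 0 (median 0.34), whereas 6 of 7 astrocyte markers (median -1.04) and 6 of 7 D1 neuron markers (median -0.55) were below 0, and their part in the result was not tested. Of the other activity genes, Pim1 had the smallest p (log2 fold change -5.57, SE 2.19, adjusted p = 0.614, on 3 counts in all in the escalating libraries).

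**Figure D2:**
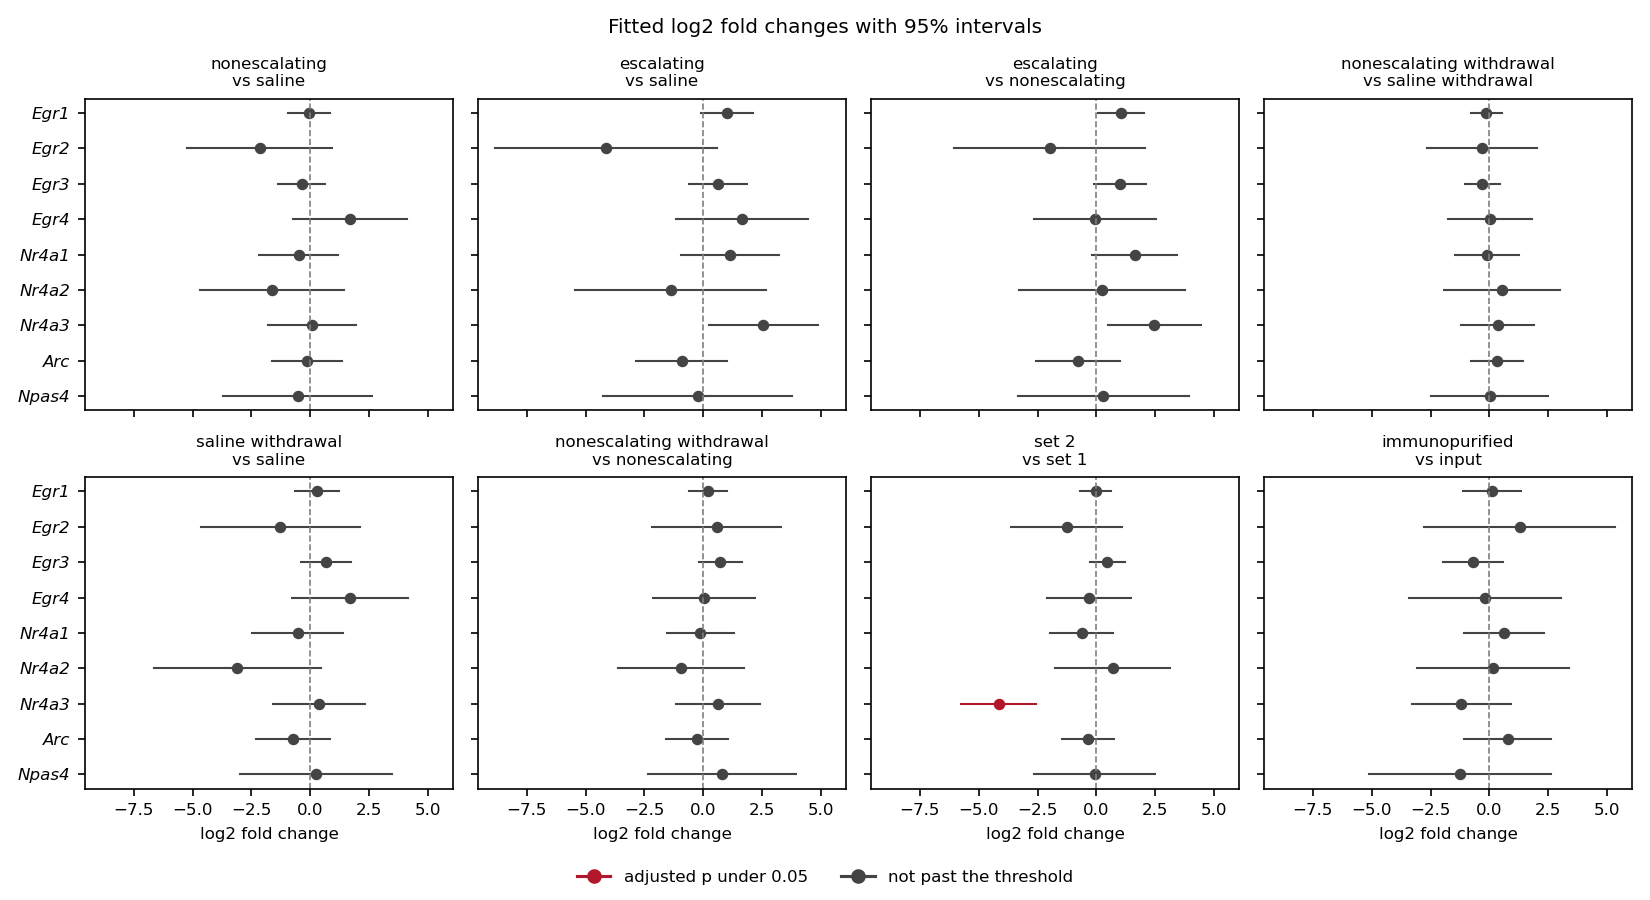
Log2 fold change of each gene in each of the 8 comparisons (horizontal axes; points are fitted values and lines their 95% intervals), first group minus second. The 1 red interval, past the adjusted threshold, is Nr4a3 between the library sets (-4.14), and of the others only Nr4a3 and Egr1 in escalating against nonescalating and Nr4a3 in escalating against saline exclude 0.

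The question of cocaine intake without escalation against saline gave no call among the 15854 genes (0%), and 1068 genes had an unadjusted p under 0.05 (6.74%) with none of the 9 among them. DESeq2 called 34 and limma voom 0. None of the 9 separated the groups without overlap, as 2.38% of all genes did. The log2 fold changes of the 9 had a median of -0.36, with 2 above 0, where the median of all genes was 0.01. Egr1 was at 317 ± 116 CPM (SD, n = 3) in saline and 314 ± 219 CPM (SD, n = 5) in nonescalating libraries, with a 95% interval of its log2 fold change from -0.93 to 0.85. Arc was at 38.9 ± 13.4 and 36.5 ± 32.5 CPM, with an interval from -1.63 to 1.35. Egr3 (-0.36, SE 0.49), Nr4a1 (-0.50, SE 0.81), Nr4a3 (0.09, SE 0.91) and Npas4 (-0.54, SE 1.56) also differed by less than their standard errors. All 8 oligodendrocyte markers were above 0 (median 0.73), and their part in these values was not tested.

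Egr4 was the gene with the largest positive value, at 24.2, 4.71, 52.2, 0 and 3.91 CPM in the nonescalating libraries (log2 fold change 1.70, SE 1.19). Without nonescalating replicate 3 it was 0.71, and without nonescalating replicate 4 it was 2.02. Egr2 (-2.15, SE 1.51) and Nr4a2 (-1.64, SE 1.49) each rested on 1 saline library. The value for Egr2 was -0.27 without saline replicate 3 and -3.79 without nonescalating replicate 3, and without saline replicate 1 that for Nr4a2 was 0.48. The other activity genes included Dusp1 at -1.40 (SE 0.49, adjusted p = 0.719), with 22.2 to 72.3 CPM in the nonescalating and 80.9 to 164 CPM in the saline libraries. Among the regulators and partners, the retinoid X receptor Rxrg, a partner of Nr4a1 and Nr4a2, had the smallest p (-1.37, SE 0.59, adjusted p = 0.719).

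After withdrawal, nonescalating cocaine was compared with saline over 8 and 6 libraries, the largest groups in the study. None of the 15854 genes passed the test (0%), 553 had an unadjusted p under 0.05 (3.49%), and none of the 9 was among them. DESeq2 called 2 and limma voom 0. Egr1 ranged from 200.4 to 543 CPM (median 381) after cocaine and from 222 to 557 CPM (median 383) after saline. Its log2 fold change was -0.13 (SE 0.32, 95% interval -0.79 to 0.53). Arc ranged from 11.9 to 47.8 CPM (median 20.6) after cocaine and from 4.32 to 48.8 CPM (median 20.2) after saline. Its log2 fold change was 0.32 (SE 0.55, 95% interval -0.80 to 1.44). Egr3 ranged from 74.8 to 248 CPM (median 176) and from 71.6 to 324 CPM (median 229.8).

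All 9 log2 fold changes, from -0.32 to 0.52, were smaller than their standard errors, with a median of 0.00 where the median of all genes was 0.05. They were -0.32 for Egr2, -0.30 for Egr3, 0.04 for Egr4, 0.52 for Nr4a2, 0.35 for Nr4a3 and 0.004 for Npas4. The widest 95% interval was that of Npas4, from -2.47 to 2.48. Among the 9, Egr1 was the only gene whose interval lay within 1 log2 unit of 0 in both directions. Of the 17 regulators and partners, 3 were above 0 (median -0.20) and none passed the test. All 6 nuclear RNAs (median 0.58) and 9 of 11 endothelial and mural markers (median 0.50) were above 0, and their part was not tested. Arnt2, a dimer partner of Npas4, had the smallest p (-0.51, SE 0.27, adjusted p = 1).

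Nr4a1 gave opposite values in the library sets. In set 1 it was at 80.3, 45.1 and 30.7 CPM after cocaine and 3.36, 9.28 and 30.5 CPM after saline. Its log2 fold change there was 1.85 (SE 0.86, unadjusted p = 0.0390, adjusted p = 1 by edgeR). In set 2 it was at 26.1, 9.15, 1.43, 16.4 and 11.7 CPM after cocaine and 13.1, 49.2 and 44.1 CPM after saline (-1.45, SE 0.74, unadjusted p = 0.0591, adjusted p = 0.869 by edgeR). The difference between the sets, added after the data were seen, was -3.29 (SE 1.13, unadjusted p = 0.00666, adjusted p = 0.9999 by edgeR over all genes), so it failed the correction. No gene of the 15854 passed that test (0 called, 648 with an unadjusted p under 0.05). Within the sets, 345 of the 15854 genes in set 1 and 840 in set 2 had an unadjusted p under 0.05, and none was called. Pooled over the sets, Nr4a1 had a log2 fold change of -0.10 (SE 0.66).

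Between the library sets, 1 of the 9 genes passed the test. Nr4a3 was lower in set 2 than in set 1 among the withdrawal libraries. Set 1 libraries held 14, 261 and 115 counts after saline and 24, 263 and 247 after cocaine, or 6.72, 24.7, 21.9, 3.57, 24.8 and 17.8 CPM. Set 2 libraries held 1, 2 and 1 counts after saline and 3, 1, 4, 7 and 0 after cocaine, at most 2.67 CPM. The groups did not overlap in either agent.

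Mean Nr4a3 was 0.95 ± 0.93 CPM (SD, n = 8) in set 2 and 16.6 ± 9.27 CPM (SD, n = 6) in set 1. The log2 fold change was -4.14 (SE 0.78, 95% interval -5.74 to -2.55, edgeR adjusted p = 0.00429), and set 2 was lower in 8 of 8 libraries. Summed over libraries there were 19 counts among 20.1 M in set 2 and 924 among 48.8 M in set 1, a ratio of 20.01 (95% exact interval 12.7 to 33.4, counting error only). Among all genes tested, 0.915% were called between the sets (13.5% had an unadjusted p under 0.05), 0.757% as lower in set 2, and 0.618% were lower without overlap.

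The other Nr4a genes did not pass the test. Nr4a1 had a log2 fold change of -0.63 (SE 0.66) between the sets and Nr4a2 one of 0.69 (SE 1.20). Egr2 (-1.26, SE 1.15) and Egr3 (0.47, SE 0.37) exceeded their standard errors without passing the test. Egr1 (-0.03, SE 0.32), Egr4 (-0.32, SE 0.88), Arc (-0.37, SE 0.54) and Npas4 (-0.08, SE 1.26) did not exceed theirs. Of the 31 other activity genes tested, 22 were below 0 (median -0.59, all genes -0.09) and none passed the test. Maff (-4.41, SE 1.37, adjusted p = 0.121), Sik1 (-1.43, SE 0.46, adjusted p = 0.141) and Jun (-1.71, SE 0.60, adjusted p = 0.174) had the smallest p. Mef2d, a transcription factor known to activate Nr4a1, passed it among the 17 regulators (-1.05, SE 0.26, adjusted p = 0.0450), at 391 to 831 CPM in set 2 and 777 to 1489 CPM in set 1.

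Several other measures moved with the sets. The 11 endothelial and mural markers were all lower in set 2 (4 of 11 called) and summed to 298 to 1253 CPM there and to 1509 to 6842 CPM in set 1, with no marker at 0 in every library. The 7 GABA interneuron markers summed to 42.1 to 101 CPM in set 2 and 86.4 to 283 CPM in set 1. Reads that aligned to several places were a median of 36.0% in set 2 and 19.1% over all set 1 pull-downs. Counts per library were 1.54 M to 3.42 M in set 2 and 1.94 M to 14.3 M in the set 1 withdrawal libraries. The count files also list different numbers of genes (32657 in set 1 and 32531 in set 2). The annotation behind them was not given, so the sets may have been counted on different gene models. The part of all these differences in the result was not tested. The inputs, which are unpurified and of set 1, had vascular sums of 336 and 180.0 CPM and Nr4a3 at 36.9 and 18.3 CPM. Within set 1, the withdrawal libraries with the highest vascular sums (6842 and 6098 CPM) had the lowest Nr4a3 (3.57 and 6.72 CPM). The other set 1 libraries did not follow this order, with the highest Nr4a3 (80.0 CPM) in escalating replicate 1 at a vascular sum of 6892 CPM and the lowest (1.61 CPM) in nonescalating replicate 3 at 1354 CPM. A relation of Nr4a3 to the vascular sums was not tested.

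**Figure D3:**
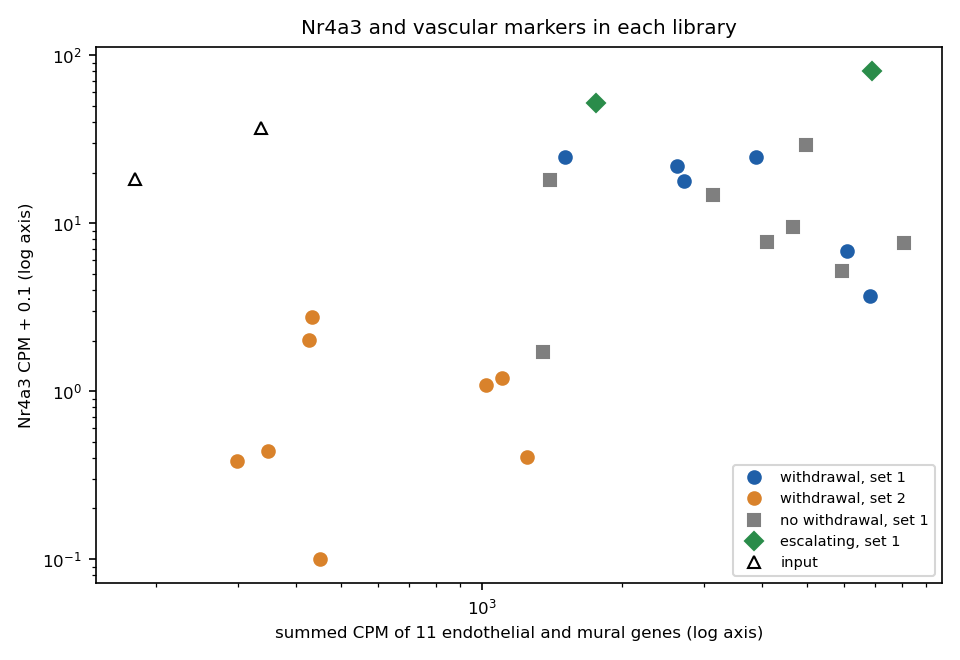
Nr4a3 level (vertical axis, CPM plus 0.1, log scale) against the summed level of 11 blood vessel markers (horizontal axis, CPM, log scale) in each of the 26 libraries. The 8 libraries of set 2 lie at 2.67 CPM or less of Nr4a3, and the inputs combine low vascular sums with 36.9 and 18.3 CPM of Nr4a3.

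Withdrawal against none was compared within each agent, with the set as a term in the fit. Between saline withdrawal and saline no gene of the 15854 passed the test (0%), and 1052 had an unadjusted p under 0.05 (6.64%), none of the 9 among them. DESeq2 called 30 and limma voom 0. Egr3 was above all 3 saline libraries in 5 of 6 withdrawal libraries (log2 fold change 0.65, SE 0.52). Egr4 was above all of them in 4 of 6 (1.69, SE 1.20). These counts of libraries take in both sets without the set term, whereas all saline libraries without withdrawal are of set 1. Nr4a2 had a value of -3.11 (SE 1.74, adjusted p = 0.782) that was -1.001 without saline replicate 1, its 82.1 CPM library, and -0.79 by limma voom. Egr1 (0.29, SE 0.47), Egr2 (-1.27, SE 1.65), Nr4a1 (-0.53, SE 0.95), Nr4a3 (0.37, SE 0.95), Arc (-0.73, SE 0.77) and Npas4 (0.25, SE 1.59) differed by less than their standard errors. All 6 microglial markers tested (median -2.84), 6 of 7 astrocyte markers (median -0.95) and 10 of 11 endothelial and mural markers (median -0.42) were below 0, and their part in these values was not tested.

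Between nonescalating withdrawal and nonescalating cocaine the test also called none of the 15854 genes (0%), and 440 had an unadjusted p under 0.05 (2.78%), again none of the 9. DESeq2 and limma voom also called 0. Egr3 had the only value beyond its standard error (0.72, SE 0.45, 95% interval -0.20 to 1.64, adjusted p = 1), with 6 of 8 withdrawal libraries above all nonescalating ones. Without nonescalating replicate 4 the value was 0.43. The 6 of 8 takes in both sets without the set term, whereas all nonescalating libraries without withdrawal are of set 1. Between the sets, Egr3 was higher in set 2 by 0.47 (SE 0.37). The other 8 genes ranged from -0.95 (Nr4a2) to 0.79 (Npas4), with Egr1 at 0.20, Egr2 at 0.56, Egr4 at 0.03, Nr4a1 at -0.14, Nr4a3 at 0.63 and Arc at -0.27. Oligodendrocyte markers moved with this comparison, from a summed 387 to 3458 CPM before to 223 to 791 CPM after withdrawal, with 7 of 8 genes below 0. All 7 astrocyte markers (median -1.09) and all 6 microglial markers tested (median -1.44) were below 0 as well. Their part in the result was not tested.

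The pull-down was compared with input over the 8 saline and nonescalating libraries without withdrawal and the 2 inputs. None of the 9 was among the 38 genes called (0.255%), all of which were higher in the pull-down. Among all genes, 8.27% had an unadjusted p under 0.05, and none of the 9 did. Egr3 was below both inputs (183 and 144 CPM) in 8 of 8 libraries, as were 4.26% of genes tested, with a log2 fold change of -0.71 (SE 0.60, 95% interval -1.99 to 0.57, edgeR adjusted p = 0.934). The highest of these libraries, nonescalating replicate 3, was just below the lower input (142.5 against 143.6 CPM). The Egr3 log2 fold change was -0.57 without nonescalating replicate 4. Nr4a3 was below both inputs in 7 of 8 libraries (-1.19, SE 0.99, edgeR adjusted p = 0.929). Without the saline input it was -0.61.

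Egr1 was at 296 and 302 CPM in the inputs, with 4 of 8 pull-down libraries above both and 4 below both (log2 fold change 0.09, SE 0.58). Arc was at 12.2 and 32.9 CPM in the inputs (0.77, SE 0.87). Npas4 was at 28.3 and 9.95 CPM in the inputs, and 6 of 8 pull-down libraries were below both (-1.26, SE 1.83). Egr2 (1.29, SE 1.92), Egr4 (-0.18, SE 1.52), Nr4a1 (0.61, SE 0.80) and Nr4a2 (0.15, SE 1.52) differed by less than their standard errors. Drd2, by contrast, was above both inputs in all pull-down libraries of these groups other than nonescalating replicate 4. In pull-down and input alike, fewer cells making a transcript and less of it per cell cannot be told apart. Of the other activity genes, Vgf (-2.27, SE 0.79, adjusted p = 0.313) and Btg2 (2.76, SE 1.05, adjusted p = 0.406) had the smallest p, and Fos had a value of -0.03 (SE 1.46).

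Fos passed the test in none of the 8 comparisons. Its log2 fold change was 2.45 (SE 2.27) in nonescalating against saline, 1.41 (SE 2.50) in escalating against saline and -1.04 (SE 2.47) in escalating against nonescalating. It was -2.75 (SE 1.59, edgeR adjusted p = 1) in cocaine against saline after withdrawal, on 13 and 84 counts in all. It was 2.62 (SE 2.32) in saline withdrawal against saline, -2.58 (SE 1.93) in nonescalating withdrawal against nonescalating and -0.56 (SE 1.55) between the sets.

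Across the 24 immunopurified libraries, with the mean of each group within each set subtracted, Egr1, Egr3 and Egr4 varied together. The median Pearson r over the 36 pairs was 0.08 and 23 pairs were above 0. Egr1 and Egr3 had r = 0.81 (permutation p = 0.00049 within groups and sets, adjusted 0.0176 over 36 pairs; Spearman rho = 0.65, permutation p = 0.00189, adjusted 0.0680). Without the 2 libraries farthest from the median of Egr1, r was 0.64. Egr1 and Egr4 had r = 0.79 (permutation p = 0.00146, adjusted 0.0263; rho = 0.65, permutation p = 0.00882, adjusted 0.106), and r = 0.66 without 2. Egr3 and Egr4 had r = 0.74 (permutation p = 0.00354, adjusted 0.0425; rho = 0.59, permutation p = 0.00740, adjusted 0.106), and r = 0.73 without 2. For Egr3 and Egr4 the 2 libraries left out were those farthest from the median of Egr3. By Spearman's rho no pair passed the correction.

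Egr1, Egr3 and Egr4 also varied with measures of the libraries themselves. How many of all genes tested vary as strongly with these measures was not counted, so the relations are not shown to be particular to these genes. Here the 2 libraries left out were those farthest from the median of the measure, that is of reads in no feature or of Drd2. Among 18 relations computed, Egr1 had r = -0.77 with the percentage of reads in no annotated feature (permutation p = 0.00103, adjusted 0.00618; rho = -0.71, permutation p = 0.00266, adjusted 0.0120) and r = -0.73 without 2. Egr3 had r = -0.69 with it (permutation p = 0.00030, adjusted 0.00378; rho = -0.66, permutation p = 0.00095, adjusted 0.0120) and -0.70 without 2. With Drd2, the gene that drives the tag, Egr3 had r = 0.88 (permutation p = 0.00173, adjusted 0.00778; rho = 0.72, permutation p = 0.00242, adjusted 0.0120) and 0.66 without 2, and Egr1 had r = 0.81 (permutation p = 0.00042, adjusted 0.00378; rho = 0.67, permutation p = 0.00264, adjusted 0.0120) and 0.67 without 2. Egr4 had r = -0.63 and 0.66 with the same measures (permutation p = 0.00774 and 0.0124, adjusted 0.0279 and 0.0371), whose adjusted Spearman p of 0.0600 and 0.126 did not pass. Nr4a1 had r = 0.24 and -0.14 with them, and none of the other 6 genes passed the correction in either.

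**Figure D4:**
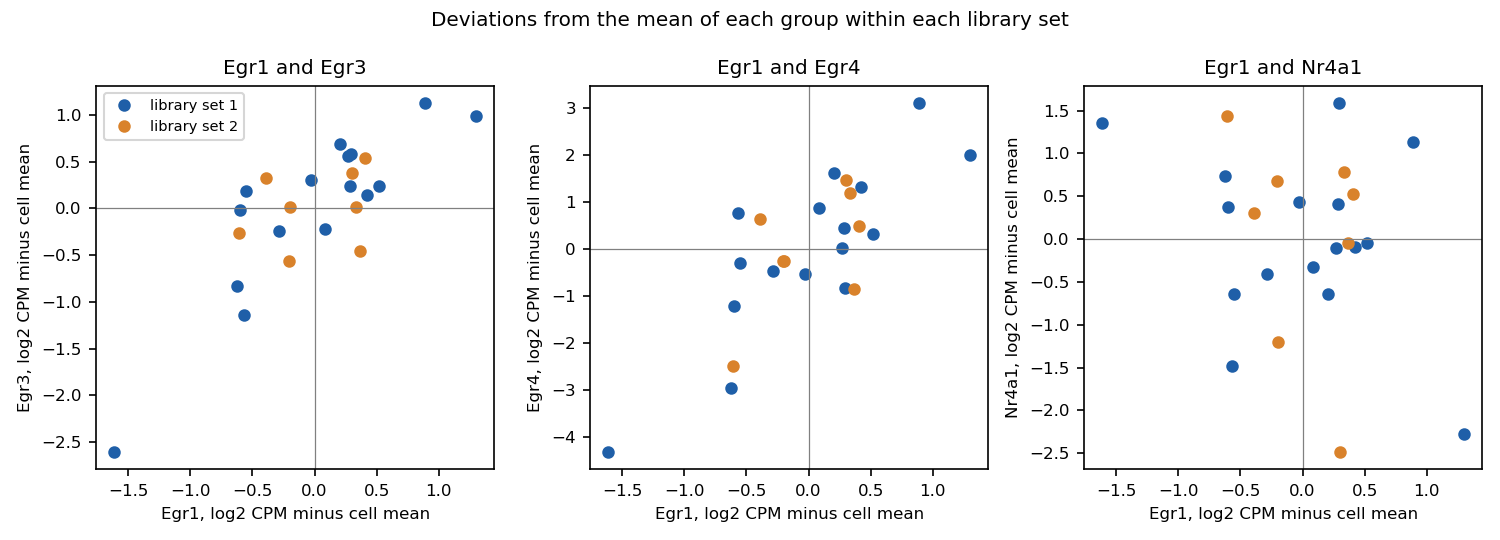
Deviation of each of 24 immunopurified libraries from the mean of its group and set, in log2 CPM, for Egr1 (horizontal axes) against Egr3, Egr4 and Nr4a1 (vertical axes), with set 1 in blue and set 2 in orange. Egr3 and Egr4 follow Egr1 (r = 0.81 and 0.79), and the lowest point in the first 2 panels is nonescalating replicate 4. For Egr1 and Nr4a1 r was -0.30 (permutation p = 0.298, adjusted 0.825), and 0.08 without the 2 libraries farthest from the median of Egr1.

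The genes most like Egr1 over the same 24 libraries, among 10544 tested genes with a mean of at least 2 on the log2 CPM scale, were Arl4c (r = 0.94), Scn2b (0.92), Ppp2r2c (0.91), 2900011O08Rik (0.91) and Rgs8 (0.90). Egr3 came at rank 111 and Egr4 at rank 154. Those most like Arc were Wnk3 (0.83), Slc2a13 (0.81), Dusp8 (0.81), Tceal3 (0.80) and Prkce (0.78), and Egr3 was at rank 68. Those most like Nr4a1 were BC028528 (0.77), Heca (0.73), Iffo1 (0.72), Mfsd8 (0.72) and Tdrkh (0.71). The libraries share their depth and their content of reads in no feature, so these values are descriptions.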

How the data were processed

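Ribosome-bound RNA from 24 immunopurified libraries and 2 inputs was sequenced, and the authors deposited read counts per gene, 1 file per library. The submitters' processing notes name STAR 2.0.0e, HTSeq and the build mm10. The annotation and the strand setting were not given in the sources used here. HTSeq's summary rows were left out of library sizes (no feature: 25.4% to 62.5% of reads), as was a row with no gene name in 1 library (1 count). Only the 31735 genes listed in all files were used, which hold at least 99.0% of gene counts.

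Counts were fitted with edgeR 4.0.16 in R 4.3.3 (robust quasi-likelihood test after TMM scaling, keeping genes by filterByExpr at a minimum of 10 counts), with group and library set as terms over the 24 immunopurified libraries. For input, 8 immunopurified libraries and 2 inputs were fitted with agent as a term. P-values were adjusted by Benjamini-Hochberg over all genes tested, at 0.05. Levels are CPM with TMM factors over all libraries, and correlations used log2 CPM with a prior count of 2 and 100000 permutations. Exact intervals are at 95%. DESeq2 1.42.0, limma 3.58.1 (voom) and other filters, terms and subsets were alternatives. The edgeR code was run on simulated counts that had the same spread for every gene and no difference between the sets. That run therefore does not give the power of the fit in these data. No 2 libraries of a group agreed within sampling noise (lowest chi-square per degree of freedom 20.4 over 57 pairs).

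The 9 genes, and the lists of other activity genes, regulators and cell type markers, were chosen with earlier results of these data known. All 9 are named in every comparison. From each list up to 4 genes with the smallest p in a comparison could be named, with Fos in every comparison, and the 5 genes most like Egr1, Arc and Nr4a1. The relations with Drd2 and with reads in no feature were added after the data were seen.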

Additional observations from a re-analysis of the deposited data

Results flagged for a closer look

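In 27 groups of 4 to 10 libraries (the 9 genes in each of 3 groups), 4 single libraries stood far from the others of their group. The rule marks about 1 in 20 groups by chance when values are normally distributed. Genes with several libraries at or near 0 CPM are not, and the withdrawal groups take in both sets. The 4 are therefore not set against that share. Npas4 was at 29.3 CPM in nonescalating replicate 5, where the next library had 0.725 CPM. Npas4 was at 37.3 CPM in saline withdrawal replicate 3 of set 1, where the next had 10.4 CPM. Egr2 was at 17.4 CPM in nonescalating replicate 3, where the next had 4.49 CPM. Nr4a2 was at 20.9 CPM in saline withdrawal replicate 3 of set 2, where the next had 4.83 CPM. These 3 genes are the ones with the widest spread between libraries, and none of the 4 libraries stood out for more than 1 of them.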

How the results depend on the processing

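The low call of Nr4a3 in set 2 held under every alternative run (log2 fold change -4.55 to -3.97 and adjusted p 0.00163 to 0.0162 when single libraries were left out). The alternatives are summarized for 25 fold changes of the 9 genes, those beyond their standard error and those of Egr1, Arc and Nr4a1 in withdrawal. The others were run as well but are not summarized here. Most of the 25 were picked for exceeding their standard error in these data, which favours a stable sign. Of the 25, 20 kept their sign in every alternative (749 of 766 values). limma voom gave 1.66 (Egr1) and 1.56 (Egr3) in escalating against nonescalating, 1.19 (Egr3) in nonescalating withdrawal against nonescalating and -2.01 (Egr2) between the sets, and turned Egr4 (-0.65) and Nr4a2 (0.31) in nonescalating against saline and Nr4a1 in withdrawal (0.25). With saline withdrawal of set 1 as the control, as the description labels would allow, Egr4 was -0.36, Nr4a2 2.43 and Egr2 -0.46. In withdrawal, Nr4a1 was 0.15 with no set term and 1.81 in set 1 only, Egr1 was 0.33 in set 1 only, and Arc was 0.83 in set 1 only and -0.030 in set 2 only. Leaving out single libraries gave -0.25 to 0.056 for Egr1, 0.096 to 0.83 for Arc and -0.50 to 0.24 for Nr4a1 in withdrawal, and -2.17 to 0.48 for Nr4a2 in nonescalating against saline. Counts of genes called depended on the tool, and the cause was not tested. DESeq2 called 34 (nonescalating against saline), 143 (escalating against saline), 225 (escalating against nonescalating), 2 (withdrawal, cocaine against saline), 30 (saline withdrawal against saline), 679 (sets, edgeR 145) and 757 (input, edgeR 38). limma voom called 8 for escalating against nonescalating, 474 for the sets and 1090 for input. The split moved too, with 196 (DESeq2) and 157 (voom) of the set calls higher in set 2 against 25 by edgeR, and 560 of the voom input calls higher in the pull-down against 38 of 38 by edgeR. Of the 9 genes, DESeq2's adjusted p for Nr4a3 was 0.223 against nonescalating and 0.279 against saline. Input gave 132 with no filter and 70 with a filter at a CPM of 1, and escalating against nonescalating gave 2 in set 1 only. Without single libraries the counts ranged from 0 to 2 (escalating against nonescalating), 0 to 1 (escalating against saline), 50 (without nonescalating withdrawal replicate 1 of set 1) to 249 (without saline replicate 3) for the sets, and 1 (without the saline input) to 252 (without saline replicate 3) for input. Whether replicate numbers pair the libraries was not settled. Same-numbered deviations correlated at -0.14 to 0.28 over 25 pairs (median 0.08). Differently numbered ones correlated at -0.31 to 0.26 over 90 pairs (median -0.01). Of 24 libraries, 12 were best with their own number, and the main fit had no term for it. With the replicate number as a block, Egr1 in withdrawal was 0.081, Arc 0.72, Egr4 in escalating against saline 2.55, Egr3 between the sets 0.30, and 93 genes were called between the sets. At these depths 3 counts correspond to 0.171 to 1.95 CPM.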
